A study of Mus musculus with 20 samples.

Results

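Type I interferon-stimulated genes were followed in orthotopic colorectal tumours grown from 5 mouse tumour organoid lines (MTO lines) in the caecum of C57BL/6J mice. The list held 37 genes, picked for their known induction by type I interferon. A gene was taken from the array's probe set that carries its symbol alone, and from the one of highest mean where there were several. In this way 33 of the 37 genes were measured, out of 17097 genes in all, and all 33 passed the filter on low values. Isg15, Ifi44, Oas1a and Bst2 had no such probe set and were left out. RNA came from whole fragments of 20 tumours, with 2 control and 2 galunisertib-treated tumours for each line. Galunisertib blocks the kinase activity of the type I TGF-beta receptor, and treated mice received 10 mg by gavage 2 times per day from day 11 until sacrifice at week 5. No source used here says what the control mice received or how old the mice were. MTO68 and MTO93 are parental lines with genotype LAKTP, MTO140 is a LAKTP line of the type labelled LiM, MTO54 is a parental LAKP line and MTO207 a parental line with genotype LAKT. The labels leave the genotype letters unexplained. MTO140 was injected as spheroids in 30% basement membrane extract under the caecal serosa. The other lines were first grown under the skin and transplanted to the caecum as pieces of 1 mm3, so graft route cannot be told apart from line for MTO140. Each genotype other than LAKTP was represented by 1 organoid line. The 4 tumours of a line also shared 1 array strip, and effects of line and of strip cannot be told apart.

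Type I interferons are secreted when cells sense viral or misplaced nucleic acid. They bind the receptor pair IFNAR1 and IFNAR2, whose kinases JAK1 and TYK2 phosphorylate STAT proteins. A complex that includes STAT2 and IRF9 then enters the nucleus and binds the interferon-stimulated response element, a short repeat of GAAA in the promoters of target genes. The products include sensors of RNA, enzymes that block translation or degrade RNA, and regulators that amplify or dampen the signal. In tumours these genes can be switched on in cancer cells, stromal cells and leukocytes alike. Since the arrays measured whole fragments, fewer cells of a type and less RNA per cell cannot be told apart.

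The promoters below show the response element in some members of this class of genes. Windows running from 250 bases before to 50 bases after a gene's start were taken from RefSeq on the build GRCm38.p6, and 28 of the 37 genes had at least 1 window, 35 windows in all. The core, GAAA followed after any 2 bases by GAAA, was searched on both strands and was present in 14 of 35 windows (40%), belonging to 13 genes. The same core occurred in 3.44% of all 32851 windows of that length. The STAT dimer motif, TTC followed after any 3 bases by GAA and searched in the same way, was found in 7 of the 35 windows (20%) against 8.3% of all windows, and it overlapped the interferon core in 1 member window and in 24 windows of all genes. A match is a description of the letters and not a shown binding site. Printed are the first members with a core before the start, ordered by smallest p in the test across control lines given below. Members without a window are not printed, nor are those with no core, such as Irf7, Irf9 and Lgals3bp. Each printed run is the 250 bases before the start, read 5′ to 3′ on the gene's own strand, with every occurrence of the core on either strand in capitals.
Stat2, chr10:128270248-128270497, plus strand: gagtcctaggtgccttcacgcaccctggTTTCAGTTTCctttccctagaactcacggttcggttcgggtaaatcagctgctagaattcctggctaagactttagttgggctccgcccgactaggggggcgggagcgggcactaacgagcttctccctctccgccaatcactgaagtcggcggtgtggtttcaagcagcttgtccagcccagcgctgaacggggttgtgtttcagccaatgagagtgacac
Rsad2, chr12:26456453-26456702, minus strand: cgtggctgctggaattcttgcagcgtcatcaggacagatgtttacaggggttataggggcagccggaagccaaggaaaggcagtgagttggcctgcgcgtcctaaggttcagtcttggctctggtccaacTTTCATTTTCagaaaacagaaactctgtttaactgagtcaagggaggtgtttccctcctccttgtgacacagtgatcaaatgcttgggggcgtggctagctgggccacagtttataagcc
Ifit1, chr19:34640639-34640888, plus strand: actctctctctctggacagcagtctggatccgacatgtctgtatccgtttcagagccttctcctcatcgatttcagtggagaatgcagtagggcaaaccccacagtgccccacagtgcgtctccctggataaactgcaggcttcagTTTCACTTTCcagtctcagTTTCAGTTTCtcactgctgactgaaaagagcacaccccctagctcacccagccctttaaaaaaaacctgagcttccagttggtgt
Ifit3, chr19:34583279-34583528, plus strand: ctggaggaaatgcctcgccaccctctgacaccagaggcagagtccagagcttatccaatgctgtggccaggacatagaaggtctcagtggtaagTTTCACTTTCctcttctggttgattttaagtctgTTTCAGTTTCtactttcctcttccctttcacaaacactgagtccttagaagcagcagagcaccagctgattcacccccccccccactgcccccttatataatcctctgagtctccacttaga
Ddx60, chr8:61927837-61928086, plus strand: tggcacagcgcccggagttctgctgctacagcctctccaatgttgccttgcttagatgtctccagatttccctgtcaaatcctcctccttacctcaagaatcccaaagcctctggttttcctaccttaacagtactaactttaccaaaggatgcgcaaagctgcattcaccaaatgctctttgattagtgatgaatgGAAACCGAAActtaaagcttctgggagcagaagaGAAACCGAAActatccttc
Trim30a, chr7:104465194-104465443, minus strand: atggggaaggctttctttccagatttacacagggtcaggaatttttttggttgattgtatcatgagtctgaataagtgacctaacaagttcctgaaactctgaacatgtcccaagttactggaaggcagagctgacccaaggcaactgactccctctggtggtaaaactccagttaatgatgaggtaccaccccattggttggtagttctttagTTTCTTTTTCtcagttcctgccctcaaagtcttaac
The distance from the core to the gene's start differed widely among these promoters. In Stat2 the core began 222 bases before the start and in Rsad2 120 bases before it. Ifit1 carried cores at 104 and 85 bases and Ifit3 at 156 and 122 bases before the start. Ddx60 held its pair at 53 and 19 bases, and the upstream promoter of Trim30a held 1 core at 36 bases.

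The values are log2 signals per probe set. Array medians lay between 4.93 and 5.12, while the standard deviation (SD) over all probe sets of an array ran from 1.46 to 1.83. The control tumour 2 of MTO68 stood apart from the other 3 tumours of its line, with an array SD of 1.47 against 1.76, 1.82 and 1.81. The main counts and medians of MTO68 are therefore also given without it, which leaves 1 control tumour in that line. Its array SD was not the lowest of the series, as both control tumours of MTO207 had 1.46. The control tumours of MTO207 also differed from each other in the genes studied here. Markers of epithelium, such as keratins and claudins, were present at mean levels of 8.68 to 10.22 over the 10 groups, leukocyte markers at 7.54 to 8.40 and macrophage markers at 6.92 to 7.69. No pair of arrays held identical values. The design text calls the 2 tumours of a group biological replicates. The p-values weigh a difference against a spread estimated from all groups together, not from the 2 tumours of 1 group alone.

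The 33 genes varied together from tumour to tumour. Over 20 tumours the median Pearson correlation between members was 0.734 across their 528 pairs, and 517 pairs were positive, whereas the median over pairs of all genes tested was -0.005. With each group's mean removed the median between members was 0.648, with 492 positive pairs, against 0.001 for all genes. Pairs of one tumour share an array, and the members' median correlation with the array SD was 0.539 against 0.134 for all genes tested. The part of array spread in the members' covariation was not tested further than this. Dhx58 followed the mean of the other members most closely (r = 0.965), with Lgals3bp (r = 0.952) and Xaf1 (r = 0.95) next. Isg20, a 3′ exonuclease, followed it least (r = 0.198), and Eif2ak2 (r = 0.336) and Mx1 (r = 0.405) were also loosely tied. Eif2ak2 and Mx1 had negative correlations with the array SD, at -0.365 and -0.234. Spread also differed among members. Usp18 covered 4.10 to 9.40 over the 20 tumours, the widest range of the set, while Mx2 stayed between 4.29 and 5.00.

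**Figure D1:**
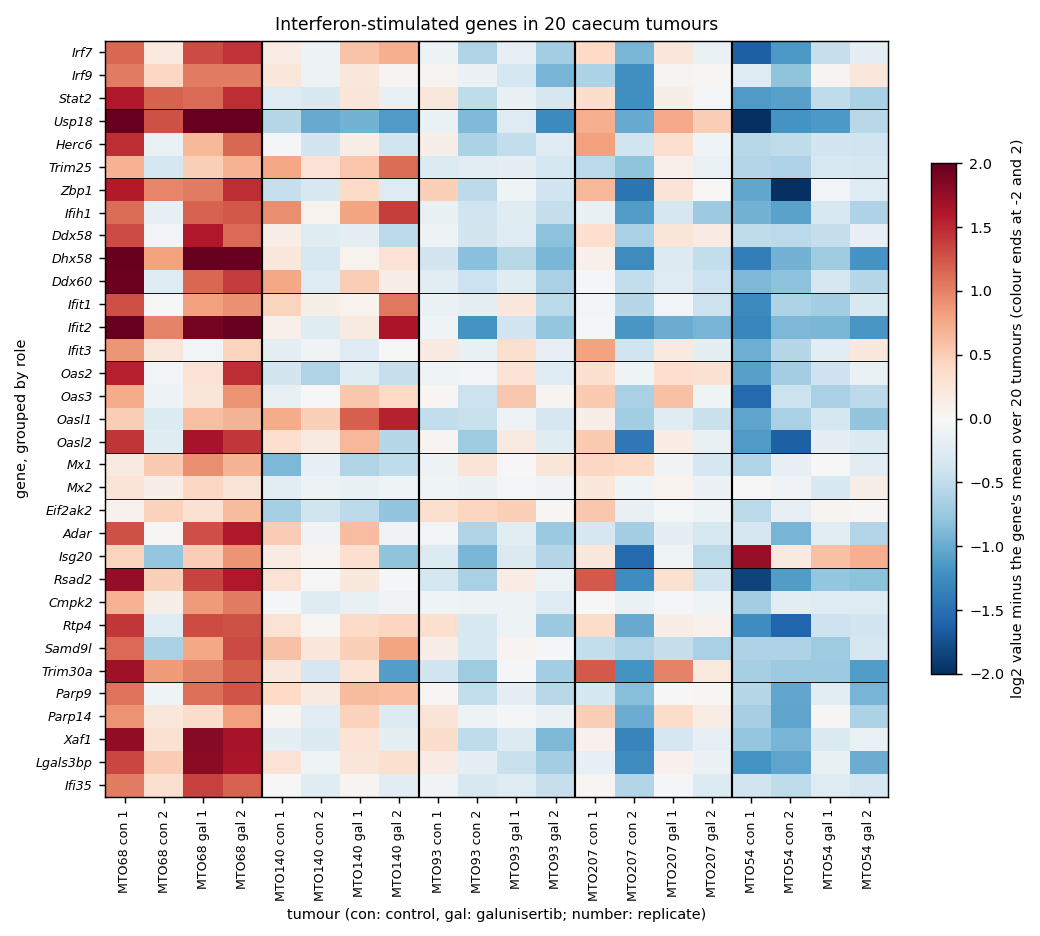
Heat map of the 33 measured interferon-stimulated genes (rows, grouped by role) in 20 tumours (columns, by organoid line and treatment); colour is the log2 value minus the gene's mean over all tumours, from -2 (blue) to 2 (red). MTO68 columns are red for most genes except in control tumour 2, and the control columns of MTO54 and control tumour 2 of MTO207 are blue.

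By group mean, the members in control tumours were highest in MTO68 and lowest in MTO54. MTO68 had the highest mean of the 5 lines in 26 of 33 genes and MTO54 the lowest in 27 of 33. Because the members covary across tumours, such counts are not counts of separate observations. The member score, the mean over the 33 genes of each gene's log2 value less its mean over all tumours, was 1.24 and 0.20 in the MTO68 control tumours. It was 0.11 and -0.14 in MTO140, -0.02 and -0.40 in MTO93, 0.24 and -0.81 in MTO207, and -0.85 and -0.79 in MTO54. The first MTO68 tumour lay far above all other controls, its partner lay just below the higher MTO207 tumour, and MTO54 and the lower MTO207 tumour sat at the bottom. The within-group SD of the score was 0.363. MTO140, MTO93 and MTO207, with group means of -0.01, -0.21 and -0.29, were neighbours that differed by less than this spread.

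Across the 5 lines, the F test on control tumours (limma, adjusted over all 15556 genes tested) passed for 5 of 33 members at an adjusted p under 0.05, where 2.8% of all genes passed. These were Usp18 (adjusted p = 0.0238), Stat2 (0.0265), Dhx58 (0.0292), Irf9 (0.0339) and Lgals3bp (0.0347). Unadjusted, 26 of the 33 had p under 0.05, against 36.4% of all genes. Without control tumour 2 of MTO68 the call extended to 28 members, but 47.1% of all genes then passed. The count was 15 without control tumour 1 of MTO68 (41.9% of all genes) and 14 without control tumour 2 of MTO140 (18.2%). It was 9 without control tumour 1 of MTO207 (1.21%) and also 9 without its control tumour 2 (1.66%). It was 3 without control tumour 2 of MTO93 (1.54%) or its treated tumour 1 (1.08%) or 2 (1.09%), and 2 without either treated MTO207 tumour (1.27% in both). It was 1 without control tumour 1 of MTO140 (0.894%) or of MTO54 (0.804%). Weighting arrays by their quality left 0 (smallest adjusted p = 0.0663).

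Set against the mean of the other 4 lines, MTO68 control tumours had a positive difference in 32 of 33 members and in 7885 of all 15556 genes. The members' median was 0.93 on the log2 scale, where the median of all genes was 0.00. Of the 33 members, 8 were called higher, against 1.03% of all genes called higher, and 0 were called lower, against 0.418%. They were Usp18 (2.83 ± 0.45 SE, adjusted p = 0.00478), Ifit2 (2.21 ± 0.43, 0.0175), Dhx58 (2.20 ± 0.36, 0.00626) and Stat2 (1.88 ± 0.31, 0.00571). Smaller were Zbp1 (1.87 ± 0.43, 0.0462), Lgals3bp (1.36 ± 0.28, 0.0280), Irf9 (1.08 ± 0.22, 0.0277) and Ifi35 (0.93 ± 0.20, 0.0315). Both MTO68 control tumours exceeded all 8 other control tumours in 9 of 33 members, against 3.14% of all genes. Leaving out its control tumour 2 gave a median of 1.58 and 23 calls (7.45% of all genes), and leaving out control tumour 1 gave a median of 0.34 with calls for Stat2 and Usp18 (4.47% of all genes). Without control tumour 2 of MTO93 there were 4 calls (0.964%), and without control tumour 1 of MTO207 there were 12 (1.26%). Stat2 and Usp18 passed in each of the 20 fits that left out 1 tumour. With array weights no member passed (smallest adjusted p = 0.974).

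The galunisertib-treated tumours gave a second look at the line difference, added after the data had been seen. There all 33 members were higher in MTO68 than in the mean of the other lines, as were 7948 of all 15556 genes. The members' median was 1.28, and 28 members passed. That share stands against a wide background, since 44.8% of all genes passed in either direction and 26.1% upward. Trim25, Ifit3, Oas3, Isg20 and Parp14 were the members that did not pass. Both treated MTO68 tumours exceeded all 8 other treated tumours in 22 of 33 members, against 25.2% of all genes in treated tumours. In 8 members all 4 MTO68 tumours lay above the 16 tumours of the other lines, against 1.84% of all genes, and these were Irf9, Stat2, Usp18, Zbp1, Dhx58, Cmpk2, Lgals3bp and Ifi35. With control tumour 2 left out that count was 19 of 33 (10.4% of all genes).

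MTO54, the LAKP line, was below the mean of the other lines in 32 of 33 members in control tumours, and above it in 6641 of all 15556 genes. The members' median difference was -0.93 against -0.04 for all genes. No member passed after adjustment, where 0.656% of all genes did. Unadjusted, 27 had p under 0.05 (26 of them lower), against 13.3% of all genes. The smallest adjusted p belonged to Irf7 (-1.40 ± 0.31, adjusted p = 0.0583), followed by Lgals3bp (-1.20 ± 0.28, 0.0793), Usp18 (-1.84 ± 0.45, 0.0953) and Rtp4 (-1.53 ± 0.38, 0.0963). Isg20 was the exception, with a difference of 1.30 ± 0.47 (adjusted p = 0.249). Both MTO54 control tumours lay below all other controls in 7 members, against 2.51% of all genes: Irf7, Usp18, Ddx60, Ifit1, Ifit3, Oas2 and Rtp4. Without control tumour 2 of MTO68, 11 members passed (1.47% of all genes). Without its control tumour 1, 6 passed (5.77%), and 7 passed without control tumour 2 of MTO207 (0.514%), so the MTO54 count depended on which tumours were included. In treated tumours the median difference of MTO54 was -0.64, with 31 of 33 members lower, where 8013 of all 15556 genes were higher. No member was called there, where 0.161% of all genes passed. Unadjusted, 17 of the 33 had p under 0.05 in treated tumours (limma), all lower, against 12% of all genes in either direction.

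In control tumours the remaining lines were nearer to the middle. MTO140 had a median difference of 0.13, and Oasl1 alone passed (0.99 ± 0.22, adjusted p = 0.0353), where 3.95% of all genes did, and 3.05% passed upward. Trim25 (0.87 ± 0.24, 0.0521), Mx1 (-0.64 ± 0.18, 0.0542) and Eif2ak2 (-0.65 ± 0.18, 0.0540) came close in opposite directions. The Oasl1 call held in 13 of the 20 fits that left out 1 tumour, and was lost without either control or either treated tumour of MTO93, without control tumour 1 of MTO140 or without either treated tumour of MTO207. Those fits called 8 members without control tumour 1 of MTO68 (45.6% of all genes) and 5 without control tumour 2 of MTO140 (28%), the most in any of them. MTO93 had a median of -0.08 and no call among members or among all genes (0%), and 1 member had an unadjusted p under 0.05 against 2.97% of all genes. In treated tumours, however, 29 of 33 members were lower in MTO93, by a median of -0.54, where 7358 of all 15556 genes were higher. No member was called (0% of all genes), and 13 had an unadjusted p under 0.05, all lower, against 22.9% of all genes. MTO207 had a median of -0.23, with Irf9 lower (-0.99 ± 0.22, 0.0409) where 9.69% of all genes passed. Its members' median was 0.28 without its control tumour 2 and -0.76 without control tumour 1, which leaves no direction for that line. No member passed in 15 of the 20 fits that left out 1 tumour, and 8 passed without control tumour 2 of MTO68, where 50.8% of all genes did.

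**Figure D2:**
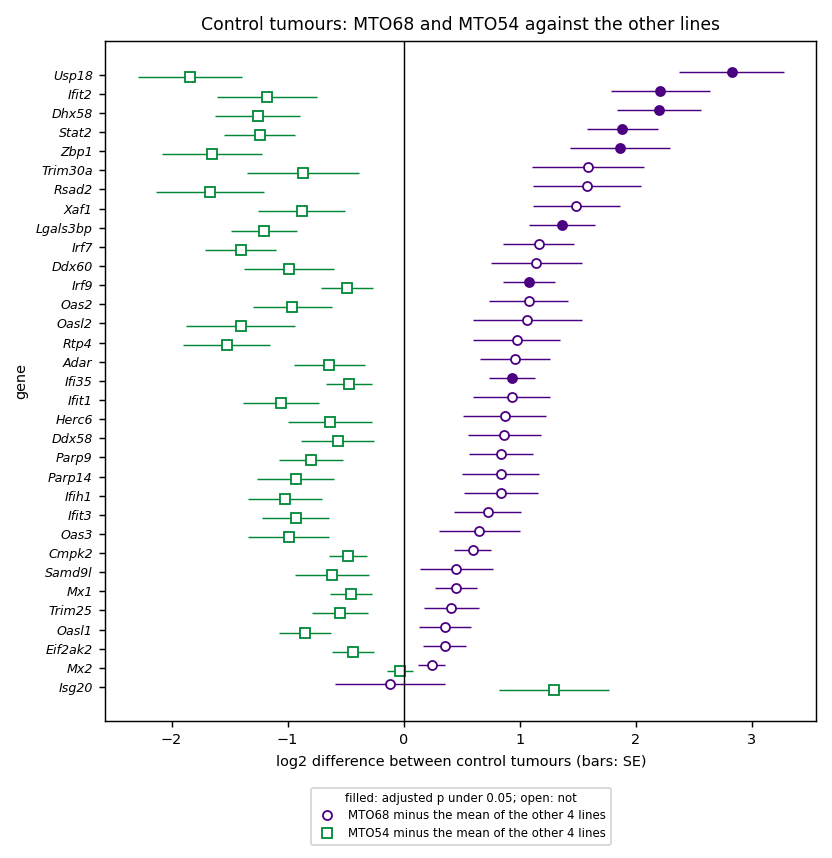
Log2 difference of MTO68 (circles) and of MTO54 (squares) from the mean of the other 4 lines in control tumours, for each member, with bars of 1 SE; filled symbols have an adjusted p under 0.05. All circles but that of Isg20 lie above 0 and 8 are filled, and all squares but that of Isg20 lie below 0 and none is filled.

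Galunisertib over control, within lines and over all 5, gave small differences that none of the tests called. The fitted difference was positive for all 33 members, against 50.3% of all genes tested, with a median of 0.24 on the log2 scale where the median of all genes was 0.00. It ran from 0.00 for Trim30a to 0.52 for Irf7 and Oasl2. No member and no other gene passed (0% of all genes, smallest adjusted p of a member 0.434 for Irf7). Unadjusted, 6 of 33 had p under 0.05, against 7.96% of all genes in either direction and 4.29% upward: Irf7, Oasl1, Trim25, Oas3, Parp9 and Ifih1. The mean was higher in each of the 5 lines for Ifit1, Oas2 and Oas3, 3 of 33 members against 3.75% of all genes. Because the members covary across tumours, their shared sign is not a count of separate observations. The median was 0.33 without control tumour 1 of MTO68 and 0.16 without its control tumour 2, where 29 of 33 were positive. With the array SD as a covariate it was 0.15, with 28 of 33 positive.

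Within single lines the members' median was 0.53 in MTO68, 0.40 in MTO54, 0.26 in MTO207, 0.13 in MTO140 and -0.08 in MTO93. No member passed in any line, and the backgrounds were 2.01% of all genes in MTO68 (1.65% upward), 0.00643% in MTO140 and 0% in the others. At an unadjusted p under 0.05 there were 4 members in MTO68, all higher (33% of all genes, 19.8% higher), and 3 in MTO54, all higher (2.85%, 1.05% higher). MTO207 had 3, of which 2 were higher (7.53%, 3.27% higher), MTO140 had 1, which was higher (3.63%, 0.855% higher), and MTO93 had 0 (1.09%, 0.437% higher). The treated tumours both lay above both controls in 20 of 33 members in MTO54, against 17.8% of all genes. Elsewhere that count was 13 in MTO68 (31.2%), 8 in MTO140 (8.32%), 5 in MTO207 (26.3%) and 4 in MTO93 (18.1%). Both lay below both controls for 2 members in MTO93 (14.4%) and 1 in MTO207 (31.6%). The MTO68 value turned on its controls: the median was 0.06 without control tumour 2 and 0.99 without control tumour 1. In the latter fit 17 members passed, along with 53.5% of all genes. The MTO207 median was 0.86 without its control tumour 1 and -0.30 without its control tumour 2. In MTO54 it stayed between 0.28 and 0.47 as each of its 4 tumours was left out. Score by score, MTO54 tumours went from -0.85 and -0.79 in controls to -0.36 and -0.41 with galunisertib, and the treated pair did not overlap the control pair.

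The test of a difference in effect between lines passed for 0 of 33 members, where 0.0643% of all genes passed. Irf9 had the smallest p (0.0151, adjusted 0.563) and was the 1 member under 0.05 unadjusted, against 8.65% of all genes. Without control tumour 1 of MTO68, Irf9 and Samd9l passed, with 18% of all genes.

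**Figure D3:**
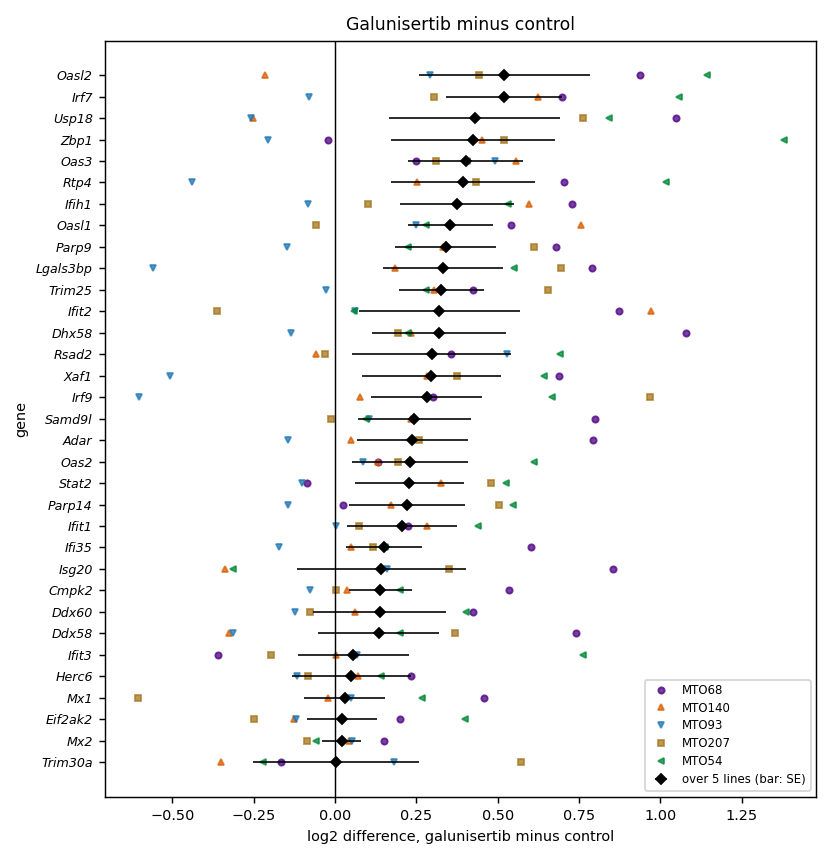
Log2 difference of galunisertib minus control for each member, over 5 lines (black diamonds, bars of 1 SE) and within each line (coloured symbols). All diamonds lie at or above 0, up to 0.52 for Irf7 and Oasl2, and the single lines scatter on both sides of 0.

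All 3 transcription factors had a positive MTO68 and a negative MTO54 difference in control tumours, and a positive treatment difference over lines. Stat2 brings the activation domain to the interferon complex. In control tumours Stat2 was 9.46 and 9.04 in MTO68, 7.61 and 7.55 in MTO140, 8.09 and 7.34 in MTO93, 8.21 and 6.63 in MTO207 and 6.73 and 6.77 in MTO54. Both MTO68 tumours were above every other control, and MTO54 shared the bottom with the second MTO207 tumour. With galunisertib Stat2 was 8.99 and 9.34 in MTO68, 8.10 and 7.72 in MTO140, 7.71 and 7.52 in MTO93, 7.98 and 7.83 in MTO207 and 7.35 and 7.20 in MTO54. Its difference over lines was 0.23 ± 0.17 (adjusted p = 0.713). Irf9, the DNA-binding subunit of that complex, was 9.04 and 8.42 in MTO68, 8.24 and 7.91 in MTO140, 8.06 and 7.89 in MTO93, 7.37 and 6.79 in MTO207 and 7.75 and 7.20 in MTO54 in control tumours. MTO68 was again on top, while the lowest tumour was 1 of MTO207 and the MTO207 and MTO54 pairs overlapped. In treated tumours Irf9 was 9.03 and 9.03 in MTO68, 8.24 and 8.06 in MTO140, 7.66 and 7.08 in MTO93, 8.06 and 8.04 in MTO207 and 8.06 and 8.23 in MTO54. The treated tumours of MTO207 and MTO54 lay above their controls, with differences of 0.97 ± 0.28 (adjusted p = 0.646) and 0.67 ± 0.28 (adjusted p = 0.999), and those of MTO93 lay below theirs, at -0.60 ± 0.28 (adjusted p = 1). Irf7, the factor that amplifies interferon production, was 7.94 and 7.00 in MTO68, 6.94 and 6.70 in MTO140, 6.70 and 6.19 in MTO93, 7.20 and 5.88 in MTO207 and 5.17 and 5.65 in MTO54 in controls. MTO54 lay below all other controls in both tumours, while MTO68 tumour 2 overlapped MTO207. In treated tumours Irf7 was 8.10 and 8.23 in MTO68, 7.37 and 7.51 in MTO140, 6.62 and 6.10 in MTO93, 7.02 and 6.66 in MTO207 and 6.34 and 6.60 in MTO54. Both MTO54 treated tumours were above both MTO54 controls (1.06 ± 0.39, adjusted p = 0.999), and so were those of MTO68 and MTO140. Over lines Irf7 had the smallest p of all members (0.52 ± 0.18, adjusted p = 0.434).

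Feedback and protein modification by ISG15 are represented by Usp18, Herc6 and Trim25. Usp18 removes ISG15 from proteins and shuts down receptor signalling, and it showed the widest line difference. Control tumours had Usp18 values that were 9.11 and 7.55 in MTO68, 5.72 and 5.28 in MTO140, 6.15 and 5.40 in MTO93, 7.01 and 5.27 in MTO207 and 4.10 and 5.09 in MTO54. Every MTO68 tumour exceeded all others, and MTO54 held the 2 lowest of the 10. Treated tumours had values that were 9.36 and 9.40 in MTO68, 5.34 and 5.15 in MTO140, 6.03 and 5.01 in MTO93, 7.04 and 6.77 in MTO207 and 5.14 and 5.73 in MTO54. Here MTO68 and MTO207 were on top, and MTO54 no longer stood below MTO140 and MTO93. The treatment difference over lines was 0.43 ± 0.26 (adjusted p = 0.69). Herc6, the main ISG15 ligase of the mouse, had a treatment difference of 0.05 ± 0.18. Its MTO68 difference in controls was 0.87 ± 0.36 (adjusted p = 0.35), or 1.67 without control tumour 2, which leaves 1 MTO68 control. Trim25, a ubiquitin ligase for RIG-I, had its highest control mean in MTO140, at 8.56 and 8.07, with 8.48 and 7.43 in MTO68. Its treatment difference was 0.33 ± 0.13 (adjusted p = 0.531).

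Among sensors of nucleic acid, all 5 members had a positive MTO68 difference and a negative MTO54 difference in controls. Dhx58 (LGP2), a regulator of the RNA sensors, was 8.09 and 6.51 in MTO68, 5.91 and 5.39 in MTO140, 5.34 and 4.87 in MTO93, 5.80 and 4.45 in MTO207 and 4.32 and 4.75 in MTO54. Both MTO68 tumours stood clear of the rest. Treated tumours had Dhx58 at 8.16 and 8.60 in MTO68, 5.78 and 5.99 in MTO140, 5.15 and 4.78 in MTO93, 5.43 and 5.20 in MTO207 and 5.00 and 4.53 in MTO54. Within MTO68 both treated tumours exceeded both controls (1.08 ± 0.46, adjusted p = 0.131), but the difference was 0.29 without control tumour 2. Zbp1, a sensor of Z-form nucleic acid that can trigger necroptosis, was 9.68 and 9.09 in MTO68, 7.65 and 7.79 in MTO140, 8.58 and 7.58 in MTO93, 8.78 and 6.64 in MTO207 and 7.06 and 6.08 in MTO54 in controls. MTO68 exceeded all other controls, and MTO54 overlapped the second MTO207 tumour. Zbp1 in treated tumours was 9.15 and 9.58 in MTO68, 8.48 and 7.85 in MTO140, 8.02 and 7.73 in MTO93, 8.37 and 8.09 in MTO207 and 8.06 and 7.85 in MTO54. MTO54 had its largest difference of any member here (1.38 ± 0.54, adjusted p = 0.999), with no overlap between arms. Ifih1 (MDA5), the sensor of long double-stranded RNA, was 7.84 and 6.56 in MTO68, 7.64 and 6.78 in MTO140, 6.56 and 6.32 in MTO93, 6.57 and 5.60 in MTO207 and 5.78 and 5.64 in MTO54 in controls. MTO140 and MTO68 overlapped at the top. The treated tumours had Ifih1 at 7.89 and 7.96 in MTO68, 7.51 and 8.10 in MTO140, 6.47 and 6.25 in MTO93, 6.38 and 6.00 in MTO207 and 6.39 and 6.09 in MTO54. Its difference over lines was 0.37 ± 0.18 (adjusted p = 0.625). Ddx58 (RIG-I), which senses RNA with a 5′ triphosphate, was 9.29 and 7.93 in MTO68, 8.12 and 7.74 in MTO140, 7.88 and 7.61 in MTO93, 8.31 and 7.33 in MTO207 and 7.47 and 7.44 in MTO54 in controls. One MTO68 tumour was high and its partner lay among the other lines. In treated tumours Ddx58 was 9.57 and 9.12 in MTO68, 7.78 and 7.43 in MTO140, 7.71 and 7.15 in MTO93, 8.23 and 8.15 in MTO207 and 7.50 and 7.81 in MTO54. Both MTO68 tumours were above all others there, and the treatment difference over lines was 0.13 ± 0.19 (adjusted p = 0.819). Ddx60, whose promoter is printed above, ran from 3.66 in an MTO54 control to 6.51 in an MTO68 control, and its treatment difference was 0.14 ± 0.20.

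The IFIT proteins bind foreign RNA and block its translation. Ifit2 had the second largest MTO68 difference in controls, at 7.80 and 6.55 against 4.26 to 5.67 in the other 8 control tumours. In treated MTO140 tumours Ifit2 was 5.74 and 7.19 against 5.67 and 5.32 in controls (0.97 ± 0.54, adjusted p = 1). Ifit1, with 2 cores in its promoter, was 8.08 and 6.77 in MTO68, 7.22 and 6.90 in MTO140, 6.65 and 6.59 in MTO93, 6.72 and 6.22 in MTO207 and 5.51 and 6.16 in MTO54 in controls. MTO54 was lowest in both tumours, and MTO68 tumour 2 fell below both MTO140 tumours. In treated tumours Ifit1 was 7.61 and 7.69 in MTO68, 6.86 and 7.84 in MTO140, 6.99 and 6.25 in MTO93, 6.73 and 6.36 in MTO207 and 6.09 and 6.47 in MTO54. The mean was higher with treatment in each line, but by 0.20 ± 0.17 over lines (adjusted p = 0.732). Ifit3, also with 2 cores, spanned 7.98 to 9.83, with a treatment difference of 0.06 ± 0.17.

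OAS enzymes sense double-stranded RNA and make oligoadenylates that activate RNase L, and the OASL proteins are their close relatives. The family's 4 measured members had a median treatment difference of 0.38 over lines, the largest of the 9 role groups. Oasl2 in controls was 9.61 and 7.94 in MTO68, 8.52 and 8.37 in MTO140, 8.24 and 7.47 in MTO93, 8.71 and 6.76 in MTO207 and 7.05 and 6.55 in MTO54. MTO54 was lowest but for the second MTO207 tumour, which lay between its values. In treated tumours Oasl2 was 9.83 and 9.60 in MTO68, 8.85 and 7.61 in MTO140, 8.36 and 7.94 in MTO93, 8.33 and 8.03 in MTO207 and 7.99 and 7.90 in MTO54. Its difference was 0.52 ± 0.26 (adjusted p = 0.649). Oas3 in controls was 8.38 and 7.52 in MTO68, 7.48 and 7.62 in MTO140, 7.67 and 7.21 in MTO93, 8.16 and 6.98 in MTO207 and 6.07 and 7.20 in MTO54. The lines overlapped, apart from 1 low MTO54 tumour. Oas3 in treated tumours was 7.87 and 8.54 in MTO68, 8.17 and 8.04 in MTO140, 8.17 and 7.69 in MTO93, 8.21 and 7.54 in MTO207 and 6.98 and 7.10 in MTO54. The difference was 0.40 ± 0.18 (adjusted p = 0.604), with a higher mean in 5 of 5 lines. Oasl1, which restrains translation of Irf7, was 6.33 and 5.57 in MTO68, 6.59 and 6.33 in MTO140, 5.36 and 5.40 in MTO93, 5.97 and 5.16 in MTO207 and 4.79 and 5.19 in MTO54 in controls. The MTO140 mean rather than that of MTO68 was highest for this gene. In treated tumours Oasl1 was 6.45 and 6.53 in MTO68, 7.05 and 7.39 in MTO140, 5.75 and 5.50 in MTO93, 5.61 and 5.40 in MTO207 and 5.49 and 5.06 in MTO54. Both treated MTO140 tumours lay above their controls (0.76 ± 0.28, adjusted p = 1), and the difference over lines was 0.35 ± 0.13 (adjusted p = 0.487). Oas2 had a treatment difference of 0.23 ± 0.18.

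Mx1, Eif2ak2 and Isg20 were the members least like the rest, by their correlations given above. Signal was low for Mx1 and Eif2ak2, with means over tumours of 5.16 and 5.25, near the array medians, while Isg20 was at 7.77. Mx2, at 4.59, was close to the filter level of 4.16. Ddx60 was as dim, at 4.55, yet followed the other members at r = 0.921. The part of weak signal in the low correlations was not tested. Mx1, a dynamin-like GTPase against influenza viruses, was 5.33 and 5.67 in MTO68, 4.26 and 4.99 in MTO140, 5.05 and 5.42 in MTO93, 5.58 and 5.55 in MTO207 and 4.56 and 5.00 in MTO54 in controls. MTO68 and MTO207 were together at the top and MTO140 and MTO54 at the bottom. C57BL/6 strains are known to carry a defective Mx1 allele. In treated tumours Mx1 was 6.08 and 5.84 in MTO68, 4.56 and 4.65 in MTO140, 5.16 and 5.40 in MTO93, 5.09 and 4.82 in MTO207 and 5.15 and 4.94 in MTO54. Treated tumours of MTO68 exceeded their controls by 0.46 on average, while those of MTO207 were below theirs (-0.61 ± 0.23, adjusted p = 0.646). Mx2 varied little and had a treatment difference of 0.02 ± 0.06. Eif2ak2 (PKR), the kinase that halts translation on double-stranded RNA, was 5.33 and 5.70 in MTO68, 4.58 and 4.85 in MTO140, 5.56 and 5.67 in MTO93, 5.79 and 5.09 in MTO207 and 4.70 and 5.07 in MTO54 in controls. The first MTO207 tumour and the MTO68 and MTO93 pairs were high, and MTO140 was low. In treated tumours Eif2ak2 was 5.55 and 5.88 in MTO68, 4.72 and 4.46 in MTO140, 5.72 and 5.28 in MTO93, 5.23 and 5.15 in MTO207 and 5.30 and 5.27 in MTO54. MTO140 was lowest in both treated tumours, and the treatment difference over lines was 0.02 ± 0.11 (adjusted p = 0.946). Adar, which edits adenosine in double-stranded RNA and prevents its sensing, followed the main pattern. Its MTO68 difference in controls was 0.96 ± 0.30 (adjusted p = 0.174), or 1.58 without control tumour 2, which leaves 1 MTO68 control. Isg20 alone had a positive difference in MTO54. It was 9.52 and 7.95 in MTO54 controls, 8.22 and 7.00 in MTO68 and 8.00 and 6.21 in MTO207, so 1 MTO54 tumour stood above all others and its partner lay among them.

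Rsad2 (viperin), which makes an antiviral nucleotide, and Rtp4 led the other effectors. Rsad2 in controls was 9.70 and 8.42 in MTO68, 8.23 and 7.94 in MTO140, 7.59 and 7.29 in MTO93, 9.17 and 6.69 in MTO207 and 6.09 and 6.83 in MTO54. The MTO68 tumours and the first MTO207 tumour were high, and MTO54 and the second MTO207 tumour low. In treated tumours Rsad2 was 9.29 and 9.54 in MTO68, 8.16 and 7.90 in MTO140, 8.09 and 7.85 in MTO93, 8.25 and 7.55 in MTO207 and 7.18 and 7.13 in MTO54. MTO68 was above all other lines there, and the treatment difference over lines was 0.30 ± 0.24 (adjusted p = 0.732). Rtp4, a chaperone of receptors that responds to interferon, was 10.46 and 8.78 in MTO68, 9.32 and 9.06 in MTO140, 9.37 and 8.73 in MTO93, 9.40 and 8.02 in MTO207 and 7.79 and 7.45 in MTO54 in controls. Both MTO54 tumours were below all others. In treated tumours Rtp4 was 10.33 and 10.31 in MTO68, 9.42 and 9.46 in MTO140, 8.93 and 8.29 in MTO93, 9.17 and 9.12 in MTO207 and 8.62 and 8.65 in MTO54. The MTO54 pair lay above its controls (1.02 ± 0.48, adjusted p = 0.999), and the difference over lines was 0.39 ± 0.22 (adjusted p = 0.676). Cmpk2, the neighbour and partner of Rsad2 in nucleotide metabolism, had an MTO68 treatment difference of 0.53 ± 0.21 (adjusted p = 0.113), which was 0.25 without control tumour 2 of that line. Samd9l, a growth-restraining antiviral factor, had a treatment difference of 0.24 ± 0.17. Trim30a had the smallest one, 0.00 ± 0.26.

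The last group joins ADP-ribosyltransferases with other induced proteins. Lgals3bp, a secreted glycoprotein that binds galectins, was 10.65 and 9.83 in MTO68, 9.59 and 9.22 in MTO140, 9.48 and 9.12 in MTO93, 9.15 and 8.05 in MTO207 and 8.12 and 8.26 in MTO54 in controls. MTO68 exceeded all others, and the bottom was shared by MTO54 and the second MTO207 tumour. Treated tumours had Lgals3bp at 11.11 and 10.94 in MTO68, 9.55 and 9.63 in MTO140, 8.86 and 8.62 in MTO93, 9.40 and 9.20 in MTO207 and 9.16 and 8.32 in MTO54. Its difference was 0.79 ± 0.36 in MTO68 (adjusted p = 0.144), 0.69 ± 0.36 in MTO207 (adjusted p = 0.646) and -0.56 ± 0.36 in MTO93 (adjusted p = 1). Without control tumour 2 of MTO68 the first of these was 0.38. Ifi35 was 7.73 and 7.01 in MTO68 controls against 6.11 to 6.74 in the other controls. Parp9 had a treatment difference of 0.34 ± 0.16 (adjusted p = 0.621), and its partner Parp14 one of 0.22 ± 0.18. Xaf1, a pro-apoptotic antagonist of XIAP, had an MTO68 difference of 1.49 ± 0.37 (adjusted p = 0.0715) in controls. It was 2.23 without control tumour 2, which leaves 1 MTO68 control.

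**Figure D4:**
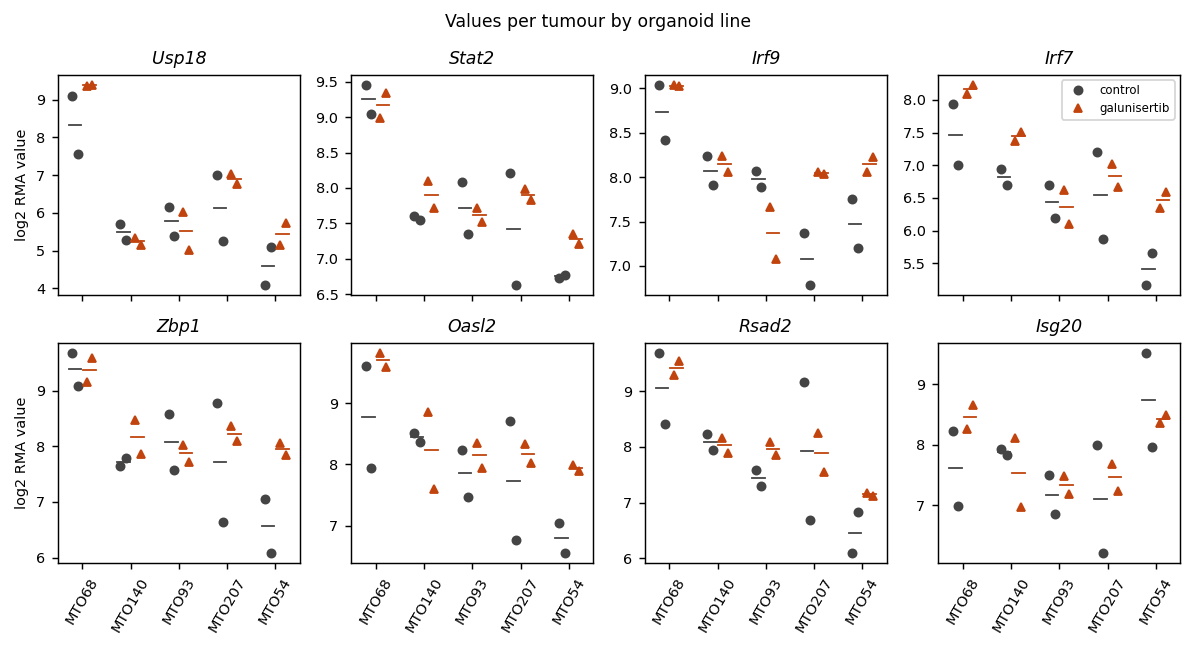
Log2 values of 8 members in each of the 20 tumours, by organoid line, with control tumours as circles, galunisertib tumours as triangles and group means as short bars. MTO68 lies highest for Usp18, Stat2, Irf9 and Zbp1, and Isg20 has its highest value, 9.52, in an MTO54 control tumour.

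The genes that act before the interferon-stimulated genes were read from a list of 32 ligands, receptors, kinases, sensors and adaptors, of which 27 were tested. None passed over lines, in the MTO68 contrast or in the MTO54 contrast of control tumours, where 0%, 1.45% and 0.656% of all genes did. Over lines 14 had a positive and 13 a negative treatment difference, with a median of 0.01, and none had an unadjusted p under 0.05. In control tumours the median was 0.12 for MTO68 (22 of 27 higher) and -0.09 for MTO54 (23 lower). Irf8, a factor of myeloid and lymphoid cells, had the smallest p in both, with 0.91 ± 0.28 in MTO68 (adjusted p = 0.162) and -0.68 ± 0.28 in MTO54 (adjusted p = 0.305). Ifnar1 had a treatment difference of -0.14 ± 0.09 (adjusted p = 0.69), and Ifnb1 one of 0.02 ± 0.05 (adjusted p = 0.889).

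The interferon-gamma response list, 17 of 20 genes tested, went with the members in some comparisons and not in others. Its median was 0.65 for MTO68 (13 higher) and -0.66 for MTO54 (16 lower) in controls, and 0.35 with treatment over lines (14 higher), with no gene passing in any of the 3. Irgm2, an immunity-related GTPase, had the smallest p in MTO68 (2.00 ± 0.47, adjusted p = 0.0527) and in MTO54 (-1.52 ± 0.47, adjusted p = 0.171). Ido1, the tryptophan-degrading enzyme, was opposed in MTO68 (-2.92 ± 0.95, adjusted p = 0.195). Cxcl9, a chemokine for T cells, had a treatment difference of 1.01 ± 0.59 (adjusted p = 0.686). The list's treatment mean was 0.96 in MTO54, 0.48 in MTO140, 0.47 in MTO207, 0.08 in MTO68 and -0.14 in MTO93. Its median treatment difference in MTO68 was -0.01 (8 higher), where that of the members was 0.53. In MTO93 controls the list's median difference was 0.47 (15 higher), where that of the members was -0.08.

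Cell type markers moved with the same comparisons to differing degrees. In MTO68 controls leukocyte markers had a median difference of 0.48 (6 of 7 higher), macrophage markers 0.36 (10 of 12 higher) and T and NK cell markers 0.24 (8 of 10 higher), none of them called. Other leukocyte lists did not share this: B and plasma cell markers had -0.13 (5 of 5 lower) and neutrophil markers -0.11 (4 of 5 lower). Classical dendritic cell markers had 0.02 (3 of 5 higher). Markers listed for plasmacytoid dendritic cells, a main source of interferon, had -0.11 (5 of 6 lower). These 6 markers diverged elsewhere, from -0.84 to 1.44 in MTO140 controls, so their median is not a measure of that source. Epithelial markers had -0.32 (9 of 14 lower), fibroblast markers -0.20 (9 of 9 lower), endothelial markers -0.30 (6 of 8 lower) and smooth muscle markers -0.36 (5 of 6 lower). In MTO54 controls T and NK cell markers had -0.43 (9 of 10 lower), macrophage markers 0.31 (9 of 12 higher), leukocyte markers 0.03, fibroblast markers 0.37 (8 of 9 higher), endothelial markers 0.32 (7 of 8 higher), smooth muscle markers -0.29 (4 of 6 lower) and epithelial markers -0.21, with Vil1 called lower (-2.31, adjusted p = 0.0493). With treatment over lines, fibroblast markers had -0.60 (9 of 9 lower) and smooth muscle markers -0.55 (6 of 6 lower). Epithelial markers had 0.26 (14 of 14 higher), close to the members' own 0.24, while leukocyte markers had 0.03 and macrophage markers -0.07. Endothelial markers had -0.17 (7 of 8 lower) and B and plasma cell markers 0.19 (5 of 5 higher). T and NK cell markers had 0.04 (7 of 10 higher), neutrophil markers -0.04 (3 of 5 lower) and classical dendritic cell markers -0.03 (4 of 5 lower). Plasmacytoid dendritic cell markers had -0.09 with treatment (4 of 6 lower) and -0.19 in MTO54 controls (5 of 6 lower). Also in MTO54 controls, B and plasma cell markers had -0.18 (5 of 5 lower) and neutrophil markers -0.16 (4 of 5 lower). Classical dendritic cell markers had -0.01 there (4 of 5 lower). None of these marker genes passed over lines. The leukocyte score was among those that differed within the unlike control pairs. It was 0.87 and -0.36 in MTO68 control tumours 1 and 2, where the member score was 1.24 and 0.20, and 0.38 and -1.12 in those of MTO207, where the member score was 0.24 and -0.81. In MTO54 it was 0.43 and -0.29 while the member score hardly differed. The epithelial score of the same MTO68 pair was 0.10 and -0.82, and that of the MTO207 pair -0.91 and -0.21. Further lists split in the MTO68 control pair, where the score SD was 0.87 for leukocytes and 0.73 for the members. It was 0.94 for fibroblasts, 0.76 for macrophages and 0.69 for smooth muscle, but 0.10 for neutrophils and 0.02 for B and plasma cells. In the MTO207 control pair it was 1.06 for leukocytes, 0.81 for macrophages, 0.33 for fibroblasts and 0.74 for the members. The part of cell composition in the members' differences was not tested.

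**Figure D5:**
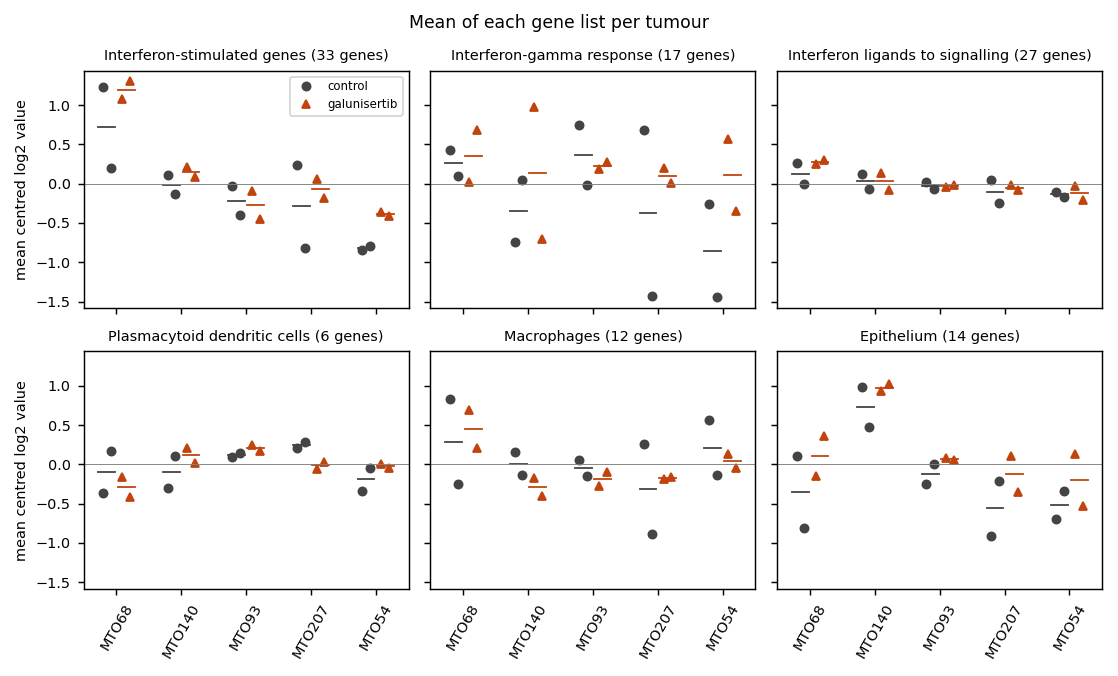
Mean centred log2 value of 6 gene lists in each of 20 tumours, by organoid line, with control tumours as circles, galunisertib tumours as triangles and group means as short bars. By group mean the interferon-stimulated genes are highest in MTO68 and, among controls, lowest in MTO54 (-0.85 and -0.79, with 1 MTO207 control at -0.81), and the epithelial list is highest in MTO140.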

How the data were processed

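Whole tumour fragments from 20 mice were profiled on 1 biotin-labelled array each, per the labels' protocols. The deposited table holds the authors' log2 signals, which the submitters' processing notes trace to RMA and the affy package without versions. RMA removes background, equalises probe distributions between arrays and combines the probes of a set. The number of arrays limits precision. Tumours labelled LY were taken as galunisertib-treated. Of 45141 probe sets, 28898 carried 1 gene symbol, 551 several, 15588 none and 104 were controls, and 28689 of the single-symbol ones matched a current gene by Entrez ID, giving 17097 genes. The probe set of highest mean represented a gene. Genes had to exceed 4.16 in log2, the 25th percentile of the table, on 2 or more arrays, which left 15556.

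Differences came from limma 3.58.1 (R 4.3.3; lmFit, then eBayes using a trend): over lines with the line as a block, otherwise with 1 mean for each of the 10 groups and a shared spread. Tests were two-sided, p-values were adjusted by Benjamini-Hochberg across the 15556 genes with a threshold of 0.05, and the fits were checked on simulated data. Every adjusted p is limma's. Replicates were numbered in accession order. Motifs were searched in RefSeq promoter windows with Python 3.11.15, and figures drawn with matplotlib 3.10.9. The members and lists were chosen with earlier results of these data known, so no set test, score test or p adjusted over the list is given. Values in every tumour are given for the 6 members of smallest p across control lines, the 6 of largest difference over lines, and a fixed set of pathway genes, and elsewhere up to 4 members of smallest p are named. Alternatives were the filter, the choice of probe set, centring, quantile normalization, the eBayes trend, array weights, the array SD as a covariate, and leaving out each tumour or line, and the treated-tumour comparison of lines was added after seeing the data.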

Additional observations from a re-analysis of the deposited data

Results flagged for a closer look

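In 3 members both treated tumours lay above both controls in one line and below both in another, which held for 38.6% of all genes tested. For Irf9 the difference, galunisertib minus control, was -0.60 in MTO93 against 0.67 in MTO54 and 0.97 in MTO207, and the test of unequal effects between lines gave an adjusted p of 0.563 (limma). For Mx1 it was -0.61 in MTO207 against 0.46 in MTO68 (adjusted p = 0.563). For Lgals3bp it was -0.56 in MTO93 against 0.79 in MTO68, 0.55 in MTO54 and 0.69 in MTO207 (adjusted p = 0.563), and the MTO68 difference was 0.38 without control tumour 2 of that line. None of the 3 passed the test of a difference between lines.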

How the results depend on the processing

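The alternatives gave 412 values, which are counts of members called in each comparison and the members' median treatment difference over lines. Of these, 346 counted as unchanged, 37 were weaker and 29 stronger. A count was unchanged within 1.5 times the reported one. The median was unchanged if it moved by no more than 0.363, the within-group SD of the member score. That SD exceeded the median of 0.24, so a median of 0 would also have counted as unchanged. Many of the 346 were counts that were 0 as reported and stayed 0. These included 36 for galunisertib over lines and 28 each for galunisertib in MTO93, MTO140, MTO54 and MTO207. Another 29 were those of MTO93 controls. Medians within single lines were not among the 412 values. Without control tumour 2 of MTO207 that line's median changed sign. It went from -0.23 to 0.28 in the control comparison and from 0.26 to -0.30 with treatment. The counts below are members passing at an adjusted p under 0.05 (limma), each with the share of all genes passing. Across control lines the count was 5 as reported (2.8%), 11 after quantile normalization (5.97%) and 0 with array weights (1.12%). For MTO68 against the other lines it was 8 as reported (1.45%), 4 after median centring (1.09%) and 0 with array weights (0.0129%). For MTO140 it was 1 as reported (3.95%), 4 with the mean of probe sets (5.96%), 2 without the eBayes trend (3.84%), and 0 after quantile normalization (1.2%) or with array weights (0.0193%). For MTO54 it was 0 as reported (0.656%) and 3 after quantile normalization (1.48%). For MTO207 it was 1 as reported (9.69%), 2 with the probe set of largest variance (6.54%) and 3 with array weights (30.6%). In treated instead of control tumours, chosen after seeing the data, the counts were 20 across lines (31.4%), 28 for MTO68 (44.8%), 3 for MTO140 (5.16%) and 0 for MTO207 (0.0643%). For galunisertib in MTO68 the count was 0 as reported (2.01%) and 1 with the probe set of largest variance (2.51%). Leaving out each tumour in turn gave 1 to 28 calls across control lines, 2 to 23 for MTO68, 0 to 8 for MTO140 and for MTO207, 0 to 11 for MTO54, 0 to 2 for unequal effects and 0 to 17 for galunisertib in MTO68. The members' median over lines ran from 0.163 to 0.332 in those fits. The cause of these shifts was not tested. With 2 tumours in a group, the spread rested on all 10 groups. No paired analysis was possible because the labels give no replicate numbers that pair tumours across groups.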

Other observations

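For 11 of the 33 members the array held further probe sets, 15 in all. Of these, 10 correlated with the probe set used at r above 0.8 over the 20 tumours. The others were at 0.274 for Rtp4, 0.277 and 0.567 for Ddx58, 0.341 for Dhx58 and 0.793 for Zbp1. A further Dhx58 probe set was at 0.974. The probe sets of low r were dimmer and varied less than those used. For Rtp4 the mean was 5.42 and the SD over tumours 0.32, against 9.03 and 0.80 in the set used. For Ddx58 the means were 5.81 and 5.23 and the SDs 0.21 and 0.32, against 7.98 and 0.66. The Dhx58 set had a mean of 3.59, under the filter level of 4.16. Whether their low r comes from weak signal or from another expression pattern was not tested. The points of each correlation share arrays.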
